A study of Mus musculus with 19 samples.

Results

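Sodium and calcium channel subunits were described across the layers of the mouse primary somatosensory cortex (S1). The set comprised 30 genes of 24130 Ensembl genes listed in at least 1 library, taken by gene symbol: 14 encode pore-forming subunits and 16 encode auxiliary subunits. The pore-forming genes were 5 sodium channel alpha subunits, 8 calcium channel alpha1 subunits and Nalcn. The auxiliary genes were 3 sodium channel beta subunits, 3 alpha2delta subunits, 4 calcium channel beta subunits and 6 gamma subunits.

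Polyadenylated RNA came from 6 dissected segments of S1 of male C57BL/6 mice (C57BL/6J in the methods of the study) aged 56 days, with no mutant allele or drug treatment in any group. From the pia down, A was mainly layers 1 to 3, B was layer 4, C and D were both mainly layer 5, with C above D, and E and F were mainly layers 6 and 6b. Segment B was sequenced in 2 libraries, B1 and B2, each pooled from 4 littermates, and every other segment in 1 library pooled from the same 8 mice, so 5 of 6 segments had no replicate. The segments are dissected slabs that hold neurons, glia and vessels together, and fewer cells of a type cannot be told apart from less RNA per cell.

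Voltage-gated sodium channels carry the rising phase of the action potential, and voltage-gated calcium channels couple firing to transmitter release and gene expression. In both families an alpha subunit forms the pore, and auxiliary subunits set its traffic to the membrane and its gating. NALCN is a related channel that leaks sodium and sets the resting potential, and several gamma subunits are known as TARPs, partners of AMPA-type glutamate receptors.

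Depth, estimated from coverage, was lowest in A (31.4 M fragments) and highest in B2 (75.2 M), and the mitochondrial share of all FPKM ran from 5.03% in F to 21.8% in A. This share also split the layer 4 replicates, at 7.76% in B1 and 18.2% in B2. The layer labels were checked on 8 fixed markers, of which 1 was highest in A, 1 in B, 1 in C, none in D, 1 in E and 4 in F. Cux2 stood at 37.9 FPKM in A and 2.82 in F, Rorb was highest in B1 and B2 at 17.8 and 22.1, Fezf2 was highest in C at 26.0, and Ctgf stood at 167 in F against 1.24 in A. The remaining markers, Bcl11b, Foxp2, Tbr1 and Nxph4, were each highest in E or F, and only 1 of them in E. The 4 highest in F thus included markers listed for layers above 6b. Of 8 striatum markers, 6 were highest in F, 1 in A and 1 in B, and their sum was 101 FPKM in F beside 58.7 in E. Levels are FPKM, fragments per kilobase of gene model scaled to the mapped fragments of the library, and an interval is the 95% interval that cufflinks gave for a library. The interval covers no variation between mice.

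Of the 30 subunits, 26 had intervals narrow enough to be tested for a trend with depth, that is a widest interval of at most 50% of the mean FPKM. The test was limma's moderated F-test of a linear and a quadratic term in segment position. It called 16 of the 26 subunits at an adjusted p of 0.05, which is 61.5%, beside 43.5% of all 11409 genes tested. The linear term, in log2 FPKM per segment step, was positive for 10 of the called subunits (38.5% of those tested, beside 35.5% of all genes) and negative for 6 (23.1%, beside 8.06%). The quadratic term was negative, a downward curvature, for 13 (50%, beside 32.8%), of which 5 were highest in C or D. With 6 segments and 7 libraries the fit had 4 residual degrees of freedom, and library A weighed most: without it 5 subunits were called (Cacng2, Cacna1g, Cacna2d3, Scn4b and Scn1a), and 1147 of all genes.

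The scale of the libraries matters for the direction. As deposited, the median linear term of all genes tested was 0.093, and it was -0.0023 once libraries were rescaled by median of ratios. After rescaling, 15 subunits were called, 6 with a positive and 9 with a negative linear term, beside 33%, 17.3% and 15.6% of all genes. Calls were shared between the scales for 13 subunits, of which 12 kept the sign of the linear term (46.2% of those tested, beside 25.1% of all genes). Cacng4, with a linear term near 0 as deposited, did not keep it. The plot of slopes sets both scales side by side.

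**Figure D1:**
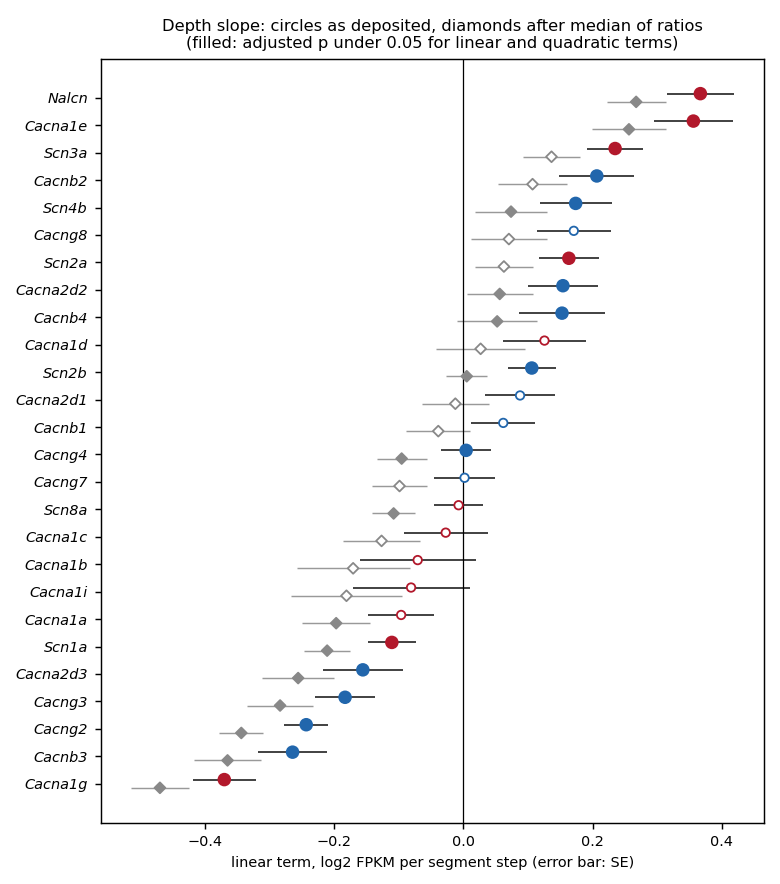
Linear term of the 26 subunits tested, in log2 FPKM per segment step from A to F, with its SE, as deposited (circles, red for pore-forming and blue for auxiliary) and after median of ratios (grey diamonds); filled points passed an adjusted p of 0.05 for both terms together. Nalcn and Cacna1e lie at the positive end, at 0.37 and 0.36, and Cacna1g lies at the negative end, at -0.37 as deposited and -0.19 without its short noncoding models.

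The segment range, the ratio of the highest to the lowest segment, was at least 2-fold for 18 of the 26 (69.2%, beside 55.5% of all genes) and for 22 of all 30. It was larger than the ratio of B1 and B2 for 24 (92.3%, beside 85.9%). Intervals of B1 and B2 were apart for 16 (61.5%, beside 66.4%). After correction for GC content, 13 subunits were called (50%, beside 31.2% of 10801 genes).

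None of the 26 was highest in F, where 31.9% of all genes tested were highest, and 10 (38.5%) were highest in E, beside 18.9% of all genes. Scn3b and Cacng5, with intervals too wide for the test, were highest in F. From E to F, 15 of the 26 were lower by intervals that did not overlap (57.7%, beside 25% of all genes), and Cacng4 and Cacng7 were higher (7.69%, beside 28.7%). Between B1 and B2, libraries of the same segment, 16 of the 26 were apart in either direction, so such steps between single libraries are descriptions. The highest segment was A for 5 (20.9% of all genes), among them Cacna1a, which was lowest in A without its noncoding models, B for 4 (7.98%), C for 6 (10.6%) and D for 1 (9.72%). The lowest was A for 17 (65.4%, beside 56%), F for 5 (beside 10.3%), D for 3 (beside 6.58%) and B for 1 (beside 13.1%), and C and E for none (beside 6.65% and 7.28%). Other steps were mixed. From A to B, 16 were higher (61.5%, beside 42.6%) and 6 lower (23.1%, beside 20.2%). From B to C, 8 were higher (30.8%, beside 29.6%) and 5 lower (19.2%, beside 7.7%), and from C to D 4 were higher (15.4%, beside 18.8%) and 9 lower (34.6%, beside 15.5%). From D to E, 9 were higher and 9 lower (34.6% each, beside 27.7% and 17.3%). After rescaling, 17 of 26 were lower from E to F (65.4%, beside 27.9%) and again none was highest in F (beside 19.4%). The highest segment was then A for 8 (beside 37.9%), B for 7 (beside 12.1%), C for 3 (beside 9.19%), D for 1 (beside 8.51%) and E for 7 (beside 12.9%), so the count in E depended on the scale. The 8 oligodendrocyte markers, all called, summed to 335 FPKM in A, 4180 in E and 12766 in F, and none was at 0, while the 8 neuronal markers, 6 of them called, summed to 1474 in A, between 2511 and 3221 in B1 to E, and 2315 in F. The part of these changes in cell makeup in the subunits' levels was not tested.

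Of the 12 pore-forming subunits tested 6 were called, and of the 14 auxiliary subunits 10, or 6 and 9 after rescaling. Over all genes tested, 43.5% were called as deposited and 33% after rescaling. The difference between the classes was not tested, since members of a class are not replicates. The share is a gene's FPKM in a segment over its sum across the 6 segments, with B the mean of its libraries. The median share of the 14 pore-forming genes was 11.7% in A, 17.7% in B, 17.9% and 16.0% in C and D, and 17.2% and 14.6% in E and F. That of the 16 auxiliary genes was 11%, 16.4%, 17.8%, 17.4%, 16.6% and 14.6% in the same order. Over all genes tested the median went from 12.4% in A to 18.2% in F, so as deposited both classes lay below it in A and F and above it in B and C. After rescaling both classes peaked in B, at 18.7% and 17.9%, with 16.6% for each in C, and the median of all genes was nearly flat, from 16.5% in A to 16.2% in F. After rescaling the pore-forming median in A was 15.6% and the auxiliary median 14.6%, and in F they were 12.7% and 13.1%.

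Summed levels differed more between the classes than between the layers. The pore-forming genes summed to 189 FPKM in A, 260 and 253 in B1 and B2, 256 and 241 in C and D, and 259 and 216 in E and F. The auxiliary genes summed to 499, 626, 535, 578, 579, 547 and 458 FPKM in the same libraries. Of these sums the gamma subunits alone held 215, 234, 204, 211, 213, 193 and 173 FPKM. The auxiliary sum, and its ratio to the pore-forming sum, thus rested in large part on a class known for partners of AMPA receptors. The ratio of auxiliary to pore-forming sums ran from 2.11 to 2.64, with 2.41 in B1 and 2.11 in B2, so the layer 4 replicates differed by more than C did from D. The sum in A depended on short noncoding models of Cacna1a and Cacna1g, described with those genes: without them the pore-forming sum in A was 145 FPKM and the ratio 3.44, beside 2.21 to 2.41 in the other libraries.

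**Figure D2:**
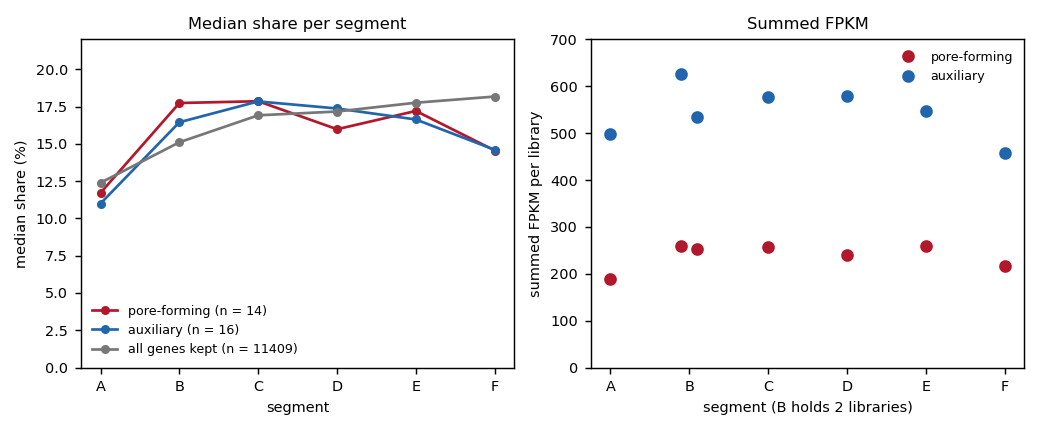
Left, median share per segment (%) of 14 pore-forming genes, 16 auxiliary genes and all 11409 genes tested; right, FPKM summed over each class in each of the 7 libraries. Values are as deposited: both classes peak in C, at 17.9% and 17.8%, while the median of all genes rises to 18.2% in F; after rescaling both peak in B and the median of all genes is nearly flat.

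**Figure D3:**
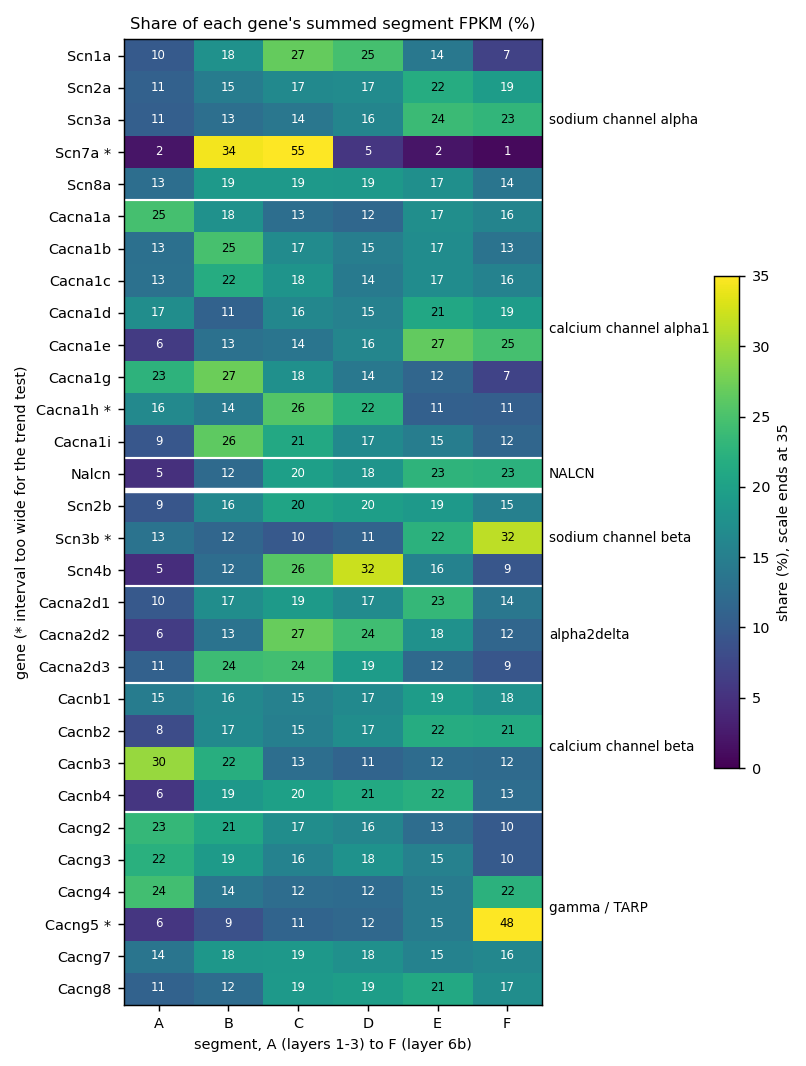
Share of each gene's summed segment FPKM, in percent, for the 30 subunits (rows, by class, with a thick line between pore-forming and auxiliary) and 6 segments (columns); an asterisk marks the 4 genes with intervals too wide for the trend test. Scn1a, Scn4b and Cacna2d2 are highest in C or D, Cacnb3 and Cacng2 in A, and Nalcn and Cacna1e in E.

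Of the 5 sodium channel alpha subunits, 4 were tested and 3 were called, beside 43.5% of all genes. Scn1a was highest in layer 5 where Scn2a was highest in layer 6. Scn1a (mm9 chr2:66108838-66278894), the subunit best known from fast-spiking interneurons, stood at 15.4 FPKM in A, 27.3 and 27.7 in B1 and B2, 41.5 and 38.3 in C and D, and 21.8 and 10.8 in E and F. It was highest in both segments of layer 5 and lowest in layer 6b, and its layer 4 replicates lay between those of A and C. The trend was called, with a linear term of -0.11 (SE 0.037), a quadratic term of -0.26 (SE 0.027) and an adjusted p of 0.0033, and -0.21 and 0.0047 after rescaling. Without F the linear term was 0.13, so its negative sign rested on that library.

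Scn2a (mm9 chr2:65458914-65605504), the subunit of excitatory axons and their initial segments, stood at 28.7 FPKM in A, 33.1 and 44.5 in B1 and B2, 43.8 and 44.6 in C and D, and 57.4 and 51.1 in E and F. It was lowest in A and highest in E, and B1 lay below B2 by intervals that did not overlap. Its linear term was 0.16 (SE 0.046) with an adjusted p of 0.0483, and after rescaling it was 0.063 with 0.497, so the call held only as deposited. The ratio of Scn1a to Scn2a was 0.537 in A, 0.825 and 0.622 in B1 and B2, 0.946 and 0.860 in C and D, and 0.380 and 0.210 in E and F. A ratio within a library does not depend on its scale, and it was lowest in F and highest in C.

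Scn3a, a subunit used mainly in the fetal brain, stood at 2.94 FPKM in A, 3.19 and 3.88 in B1 and B2, 3.82 and 4.39 in C and D, and 6.61 and 6.37 in E and F. Its 2 deepest libraries lay above all others. It was called with a linear term of 0.23 (SE 0.044) and an adjusted p of 0.0147, but not after rescaling (0.14 and 0.087), after correction for GC content (0.058 and 0.0663) nor without A (0.0744). Scn8a, the subunit of mature axon initial segments and nodes, ranged from 33.2 FPKM in A to 50.4 in B2, a 1.51-fold segment range, with a linear term of -0.0073 and an adjusted p of 0.0648. After rescaling Scn8a passed, with -0.11 and 0.0486.

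Scn7a, which encodes a channel opened by extracellular sodium rather than by voltage, was low, with most of its level in B and C: 0.0397 FPKM in A, 0.701 and 0.640 in B1 and B2, 1.08 and 0.107 in C and D, and 0.0398 and 0.0174 in E and F. B and C held 34.3% and 55.2% of its summed level. Both steps, from A to B and from B to C, were upward by intervals that did not overlap, and C to D and D to E were downward. Its interval was too wide for the trend test at 59.3% of the mean, and it rested on an estimated 8 fragments in F and 9 in A against 334 in C.

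Of the 3 sodium channel beta subunits, 2 were tested and both were called (beside 43.5% of all genes), with Scn4b highest in layer 5. Scn4b, which binds alpha subunits by a disulfide bond and is tied to resurgent current, stood at 8.22 FPKM in A, 25.2 and 19.3 in B1 and B2, 46.2 and 57.5 in C and D, and 27.8 and 16.6 in E and F. It was higher at each step down to D and lower after it, by intervals that did not overlap, and its 7.0-fold segment range was the largest of the 26 subunits tested. The trend was called with a quadratic term of -0.34 (SE 0.040) and an adjusted p of 0.0042, and 0.0089 after rescaling, while the linear term, 0.17 (SE 0.056), turned to -0.056 without A.

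Scn2b, the other subunit linked by a disulfide bond and 1 of the 3 most abundant of the 30, stood at 42.2 FPKM in A, 74.9 and 70.4 in B1 and B2, 91.5 and 88.2 in C and D, and 85.1 and 68.5 in E and F. It was highest in C and lowest in A, with a quadratic term of -0.13 (SE 0.027), an adjusted p of 0.0135 and 0.0482 after rescaling. Without A it was not called (0.160). Scn4b made up a changing part beside it: the ratio of Scn4b to Scn2b was 0.195 in A, 0.337 and 0.274 in B1 and B2, 0.505 and 0.652 in C and D, and 0.326 and 0.243 in E and F.

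Scn3b, a subunit bound without a covalent link, stood at 9.09 FPKM in A, 7.23 and 8.61 in B1 and B2, 6.71 and 7.63 in C and D, and 15.3 and 21.5 in E and F. It was highest in the 2 deepest segments and lowest in C, but its widest interval was 440% of its mean and no neighbouring segments were apart by intervals.

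Scn1a and Scn4b were highest in C and D, and so were some interneuron and general neuronal markers. Of the 8 neuronal markers, 1 was highest in A, 3 in C, 2 in D and 2 in E. Among the 7 interneuron markers, 2 were highest in A, 2 in C and 3 in D. Pvalb stood at 61.1 FPKM in A, 70.2 and 118 in B1 and B2, 145 and 117 in C and D, and 56.4 and 16.5 in E and F, and Gad1 was highest in C and D, at 67.7 and 67.2. Of the 7 interneuron markers, 5 were called, 2 with a positive and 3 with a negative linear term, none was at 0, and their sum ran from 480 in B1 to 703 in D. Their part in the levels of Scn1a and Scn4b was not tested.

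Of 10 genes known to bind or anchor sodium channels, all tested, 5 passed, near the 43.5% of all genes, and each had a positive linear term, the sign of most calls over all genes as deposited (4048 of 4968). After rescaling 3 passed. Cntn1, an axonal adhesion molecule that raises channel density, had the largest linear term of these, 0.45, with 19.3 FPKM in A and 119 in F, and Ank2, a membrane anchor, had the smallest of the 5, 0.13, with an adjusted p of 0.043 and 0.690 after rescaling.

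**Figure D4:**
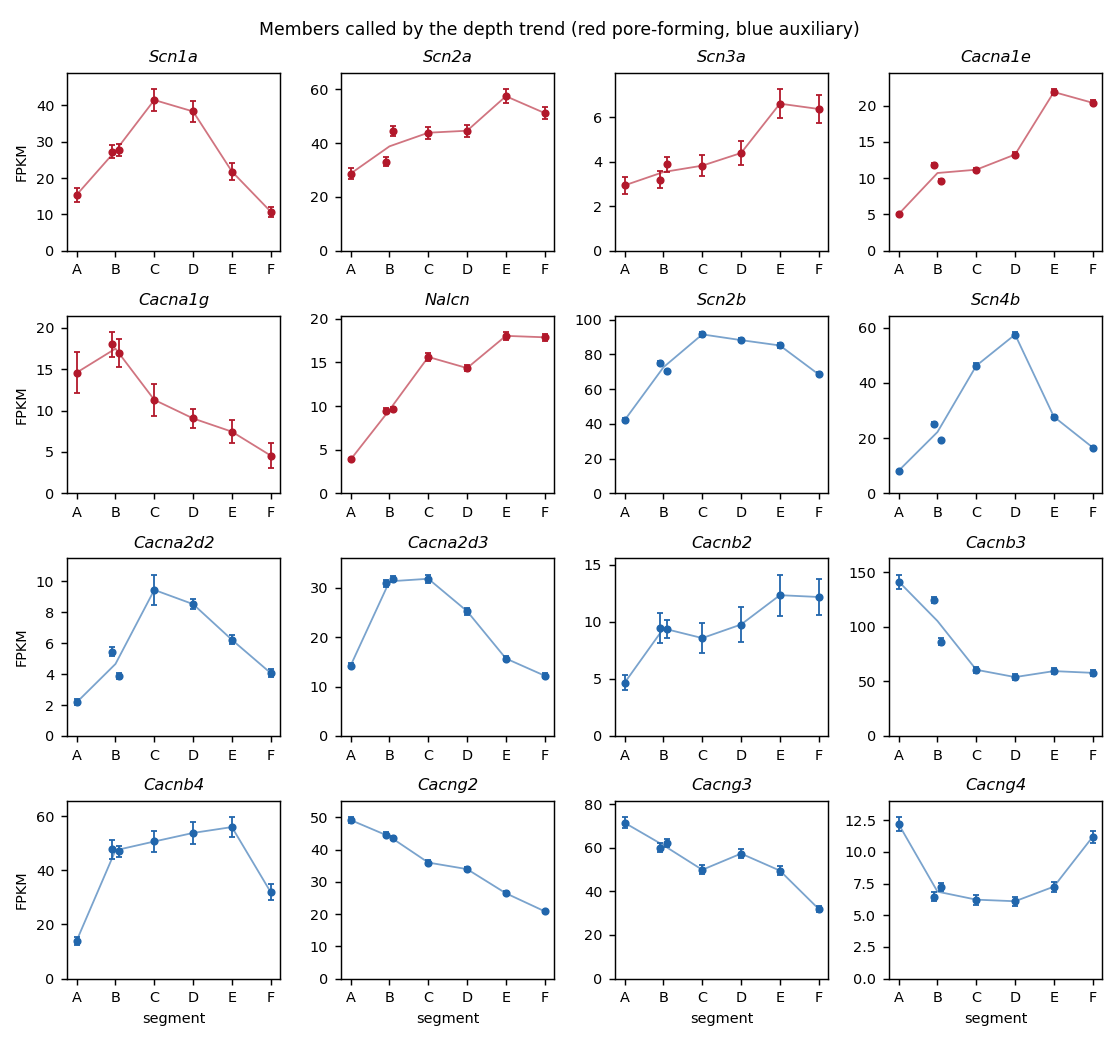
FPKM of the 16 subunits called by the depth trend, with the deposited 95% interval as error bars, in each of the 7 libraries (B holds 2) and a line through the segment means; each panel has its own axis from 0. Nalcn, Cacna1e and Scn3a are highest in E and F, Cacna1g, Cacnb3 and Cacng2 in A or B, and Scn1a, Scn4b and Cacna2d2 in C and D.

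Of the 8 calcium channel alpha1 subunits, 7 were tested. Only Cacna1e and Cacna1g were called, with linear terms of opposite sign, a smaller share than the 43.5% of all genes. Cacna1e, the R-type pore, stood at 5.05 FPKM in A, 11.8 and 9.63 in B1 and B2, 11.2 and 13.3 in C and D, and 21.9 and 20.4 in E and F. Layer 6 and 6b lay above every other library. Cacna1e rose with depth by 0.36 per step (SE 0.061, adjusted p = 0.010), and by 0.26 after rescaling (0.0365), with 0.0783 without A and 0.0570 after correction for GC content.

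Cacna1g, a T-type pore that opens near rest, stood at 14.6 FPKM in A, 18 and 17 in B1 and B2, 11.3 and 9.05 in C and D, and 7.45 and 4.56 in E and F. The values of A, B1 and B2 each lay above those of all deeper segments. It fell by 0.37 per step (SE 0.048, adjusted p = 0.0051) and by 0.47 after rescaling (0.0050).

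The size and shape of this fall rested on which gene models were counted. Short models that GENCODE M21 calls processed transcripts or retained introns, which code for no protein, held 60.5% of the FPKM of Cacna1g in A, 39.0% in B2 and 8.71% in F, and none in the other libraries. Without them Cacna1g stood at 5.76 FPKM in A, 18 and 10.4 in B1 and B2, 11.3 and 9.05 in C and D, and 7.45 and 4.17 in E and F. A then lay below B, C, D and E, and B1 lay above B2 by more than B2 did above D. With such models removed from all protein-coding genes, an alternative chosen after seeing the data, Cacna1g was called at a linear term of -0.19 (SE 0.083), a quadratic term of -0.19 (SE 0.059) and an adjusted p of 0.0469, and after rescaling at -0.28 and 0.0385. Its call, of the linear and quadratic terms together, held in all 18 alternatives, as did that of Cacng2. Without the noncoding models Cacna1g was low in A and highest in B, so its call was not of a steady fall. Cacng2 fell at each step.

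The other T-type pores had other profiles. Cacna1i stood at 9.92 FPKM in A, 33.3 and 21.7 in B1 and B2, 22.0 and 17.4 in C and D, and 15.5 and 12.1 in E and F, highest in layer 4 but with a ratio of B2 to B1 of 0.652. Its trend was not called (adjusted p = 0.152). Cacna1h stood at 2.75, 2.74, 2.02, 4.29, 3.75, 1.79 and 1.76 FPKM in order from A to F, with intervals too wide for the test. Of the 3 T-type genes together, Cacna1g made up 53.5% in A, 33.3% in B1, 41.7% in B2 and 24.8% in F, and Cacna1i made up 36.4% in A and 65.6% in F. Without the noncoding models Cacna1g made up 31.2% in A, 33.3% in B1, 30.4% in B2 and 23.1% in F.

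Cacna1a, the P/Q-type pore of most fast synapses, was the highest alpha1 subunit by mean level as deposited: 52.6 FPKM in A, 33.6 and 42 in B1 and B2, 27.0 and 24.8 in C and D, and 36.8 and 33.7 in E and F. It did not pass as deposited (adjusted p = 0.0658), and passed after rescaling with a linear term of -0.20 (0.0226). Noncoding models of the same kinds held 67.4% of its FPKM in A, 45.6% in B2, 33.7% in E and 40.3% in F, and none in B1, C and D. Without them Cacna1a stood at 17.2 FPKM in A, 33.6 and 22.8 in B1 and B2, 27.0 and 24.8 in C and D, and 24.4 and 20.1 in E and F, so that A was the lowest library instead of the highest, and neither scale gave a call (0.228 as deposited and 0.183 after rescaling).

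The N-type Cacna1b and the L-type Cacna1c and Cacna1d had segment ranges of 1.92, 1.66 and 1.89 and adjusted p of 0.545, 0.647 and 0.237. Cacna1b stood at 25 FPKM in B1 and 12.6 in B2, a ratio of B2 to B1 of 0.505 that was the lowest of the 30, and the layer 4 replicates were thus further apart than its segments. A coding model of 684 bases, Cacna1b-209, held 36.3% of its FPKM in B1 and none in the other libraries. The main model, Cacna1b-204, stood at 10.4 FPKM in B1 and 12.6 in B2.

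The alpha2delta subunits, which carry alpha1 subunits to the surface and, for Cacna2d1 and Cacna2d2, bind gabapentin, were all highest in the middle or deep layers. Cacna2d2 stood at 2.17 FPKM in A, 5.45 and 3.86 in B1 and B2, 9.44 and 8.52 in C and D, and 6.22 and 4.06 in E and F. It was highest in both libraries of layer 5, and its trend was called with a quadratic term of -0.25 (SE 0.038) and an adjusted p of 0.0063, and 0.0157 after rescaling. Without A it was not called (0.0830) and its linear term, 0.15, turned to -0.016.

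Cacna2d3 stood at 14.3 FPKM in A, 30.9 and 31.7 in B1 and B2, 31.8 and 25.3 in C and D, and 15.7 and 12.2 in E and F. Layer 4 and C were high with intervals that overlapped, and A, E and F were low. It was called with a linear term of -0.16 (SE 0.062), a quadratic term of -0.19 (SE 0.044) and an adjusted p of 0.0194, though not without C (0.0621). Cacna2d1, which was highest in E, stood at 11.9, 19.9, 21.6, 23.0, 20.4, 28.1 and 16.8 FPKM from A to F and was not called (0.0650).

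The calcium channel beta subunits, cytoplasmic partners that aid folding and gating, changed their proportions across depth. Of the 4, 3 were called, beside 43.5% of all genes. Cacnb3, the most abundant of the 30 by mean level, stood at 142 FPKM in A, 124 and 86.5 in B1 and B2, 60.7 and 54.0 in C and D, and 59.5 and 57.8 in E and F. Layers 1 to 4 lay above all deeper segments, although B1 was well above B2. It fell by 0.26 per step (SE 0.053, adjusted p = 0.0125) and by 0.36 after rescaling (0.0089), with 0.0933 without A.

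Cacnb4 stood at 14.0 FPKM in A, 47.7 and 47.1 in B1 and B2, 50.6 and 53.8 in C and D, and 56.0 and 31.9 in E and F. It was low in A, close to level from B to E and lower again in F, with a quadratic term of -0.24 (SE 0.048) and an adjusted p of 0.0136 (0.0328 after rescaling, 0.0879 after correction for GC content and 0.136 without A). Of the 4 beta genes together, Cacnb3 made up 72.2% in A, 54.2% and 49.4% in B1 and B2, 38.5% and 34.2% in C and D, and 33.9% and 39.8% in E and F. Cacnb4 made up 7.15%, 20.8%, 26.9%, 32.2%, 34.0%, 31.9% and 22.0% in the same libraries.

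Cacnb2 stood at 4.66 FPKM in A, 9.47 and 9.35 in B1 and B2, 8.57 and 9.76 in C and D, and 12.3 and 12.2 in E and F. Its call as deposited (linear term 0.21, SE 0.058, adjusted p = 0.0447) was lost in 13 of 18 alternatives, with 0.260 after rescaling. Cacnb1 ranged from 32.3 FPKM in B2 to 47.7 in B1, with a segment range of 1.32 and an adjusted p of 0.568.

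Of 12 genes for calcium channel partners, 11 were tested and 5 passed, near the share of all genes (43.5%), 3 with a positive and 2 with a negative linear term. After rescaling 4 passed, 1 of them positive and 3 negative. Rem2, a small GTPase that inhibits these channels, rose by 0.45 per step as deposited, from 0.344 FPKM in A to 2.09 in F. Cabp1, a calcium sensor that modulates the channels, fell by 0.48 per step, from 365 FPKM in A to 54.8 in F.

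The isoforms of Cacnb4 split the layer 4 replicates. Cacnb4-201 begins at an upstream first exon and Cacnb4-202 at a first exon 117710 bases nearer to the shared exons. The gap between both first exons is in GRCm38, as is the sequence, read from GENCODE M21 transcripts of the same length as those in the files (8225 and 7872 bases). The start of the coding sequence, which sets the N terminus of the beta subunit, is shown for both because it is the only part that differs. Capitals mark the start codon.
Cacnb4-201, exon 1, GRCm38 chr2:52676271-52676330, minus strand: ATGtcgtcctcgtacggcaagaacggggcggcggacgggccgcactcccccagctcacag
Cacnb4-201, exon 2, GRCm38 chr2:52675728-52675811, minus strand: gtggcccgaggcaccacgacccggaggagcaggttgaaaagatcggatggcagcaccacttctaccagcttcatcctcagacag
Cacnb4-202, exon 1, GRCm38 chr2:52558269-52558313, minus strand: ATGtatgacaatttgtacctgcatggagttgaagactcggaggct
These blocks hold 48 codons in Cacnb4-201 and 15 in Cacnb4-202, and the other 1413 coding bases are the same.

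Cacnb4-201 stood at 4.34 FPKM in A, 40.6 and 14.1 in B1 and B2, 21.6 and 25.9 in C and D, and 24.7 and 15.6 in E and F. Cacnb4-202 stood at 8.70 in A, 3.40 and 33.0 in B1 and B2, 26.8 and 24.8 in C and D, and 29.3 and 13.6 in E and F. In B1 the first made up 85.1% of the gene and in B2 29.9%, with intervals of 38.5 to 42.6 and 12.7 to 15.5 FPKM, although the gene as a whole differed little between B1 and B2, at 47.7 and 47.1. The isoforms changed in opposite directions by intervals that did not overlap in 8 of 21 pairs of libraries, 6 of which included B1. Among all 1531 genes with at least 2 transcripts of narrow interval, 38.3% had such a change between B1 and B2 and 82.4% in some pair. The 2 libraries of B differed in insert size, per the labels, and its part was not tested.

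The 250 bases before the RefSeq start of the shorter first exon of Cacnb4 (GRCm38.p6) lay outside all GENCODE M21 exons, and are shown because Cacnb4-202 stood at 3.40 FPKM in B1 and 33.0 in B2. These are replicates of the same segment from mice of the same strain, and the reference sequence shown is the same for both. No account of their difference is drawn from it, and none was tested. Capitals mark CG dinucleotides, of which there are 4.
Cacnb4, GRCm38.p6 chr2:52558612-52558861, minus strand: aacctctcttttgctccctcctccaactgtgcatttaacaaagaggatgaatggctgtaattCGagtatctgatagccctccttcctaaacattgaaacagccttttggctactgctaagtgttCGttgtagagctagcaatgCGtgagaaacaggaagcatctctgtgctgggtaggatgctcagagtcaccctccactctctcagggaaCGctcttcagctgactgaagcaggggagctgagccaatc
The table of promoters held 35 starts of 24 of the 30 subunits. On both strands, GGGCGG was in 13 of the 35 windows (37.1%, beside 32.7% of 32851 windows) and TATAAA in 2 (5.71%, beside 12.4%), and CACGTG in none, beside 6.02%.

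Scn1a and Scn2a also had 2 transcripts with narrow intervals. Scn1a-201 stood at 5.43 FPKM in A, 18.3 and 20.4 in B1 and B2, 26.3 and 22.4 in C and D, and 11.9 and 5.01 in E and F. Scn1a-203 stood at 3.61, 6.62, 5.71, 8.34, 8.19, 6.23 and 2.57 FPKM in the same order. Both were highest in C and lowest in F, and no pair of libraries had opposite changes of these forms. A shorter coding model with too wide an interval, Scn1a-207, held 41.3% of the gene in A, 24.2% in F and none in B1 and B2. Scn2a-202 made up 36.7% of the gene in A, 12.4% and 27.7% in B1 and B2, 28.0% and 24.9% in C and D, and 26.4% and 40.4% in E and F. The 2 Scn2a forms have the same coding sequence in GENCODE M21, though its models of both are longer than those measured here. Opposite changes of the Scn2a forms were found in 3 of 21 pairs, A with B1, D with F and E with F. Cacna1c, the fourth gene with 2 such transcripts, had none.

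**Figure D5:**
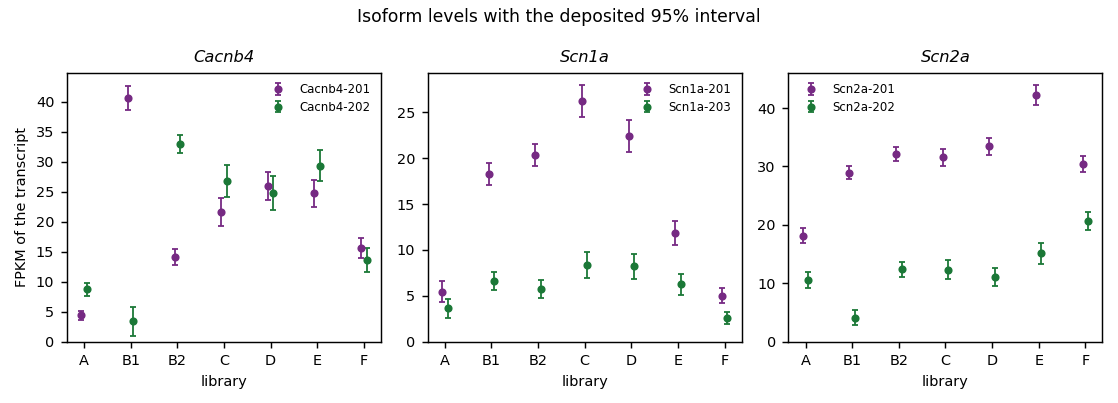
FPKM of transcripts of Cacnb4, Scn1a and Scn2a in the 7 libraries, with the deposited 95% interval as error bars, each panel from 0. Cacnb4-201 is at 40.6 in B1 and 14.1 in B2, while Cacnb4-202 is at 3.40 and 33.0.

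Of the 6 gamma subunits, 5 were tested and 3 were called, beside 43.5% of all genes. Cacng2 and Cacng3 fell with depth and Cacng4 was high at both ends. Cacng2, or stargazin, the prototype of this family, stood at 49.2 FPKM in A, 44.6 and 43.5 in B1 and B2, 36.0 and 33.9 in C and D, and 26.5 and 20.9 in E and F. Each library lay below the one above it, and each step was downward without overlap of intervals. Cacng2 fell by 0.24 per step (SE 0.034, adjusted p = 0.0063) and by 0.34 after rescaling (0.0054). Cacng3, a TARP of the same type, stood at 71.5, 60.1, 62.3, 49.9, 57.4, 49.6 and 31.9 FPKM from A to F and fell by 0.18 per step (SE 0.047, adjusted p = 0.0393), a call lost in 7 of 18 alternatives, among them leaving out F (0.246).

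Cacng4, a TARP that slows the decay of AMPA receptor currents, stood at 12.2 FPKM in A, 6.48 and 7.25 in B1 and B2, 6.23 and 6.11 in C and D, and 7.26 and 11.2 in E and F. Its linear term was 0.0044 (SE 0.038) and its quadratic term 0.16 (SE 0.027), with an adjusted p of 0.0116 and 0.0547 without A. It was high in A and F and low between them. Of the 6 astrocyte markers, all tested, 3 were called, each with a positive linear term, and none was at 0. Their sum was lowest in A at 289 FPKM, where Cacng4 was highest, and reached 630 in F, and of the 6 none was highest in A, 2 in B and 4 in F. The sum of 6 microglia markers was 105 FPKM in A, 68.3 and 59.5 in B1 and B2, 79.4 in E and 107 in F. Of these, 3 were highest in A and 3 in F. The sum of 5 markers of oligodendrocyte precursors rose from 7.31 in A to 58.9 in F. The part of these cell types in Cacng4 was not tested.

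Cacng5 and Cacng7 belong to the second type of TARP. Cacng5 stood at 0.441 FPKM in A, 0.677 and 0.712 in B1 and B2, 0.897 and 0.935 in C and D, and 1.16 and 3.82 in E and F, with 48.1% of its summed level in F and intervals too wide for the test. The step from E to F was upward without overlap. Cacng7, among the 3 most abundant, stood at 61.1, 93.9, 71.9, 83.4, 78.9, 69.4 and 72.9 FPKM from A to F and was not called (0.479), with a segment range of 1.36 beside a ratio of B2 to B1 of 0.766. Cacng8, the hippocampal TARP, ranged from 18.4 FPKM in B2 to 39.3 in E and was not called (0.0638). It was called in 3 of 18 alternatives: after correction for GC content (linear term 0.24, adjusted p = 0.0235), with B1 and B2 averaged (0.0235) and without B2 (0.0339).

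Of 8 genes for AMPA receptor subunits and other partners of the TARPs, all tested, 3 passed as deposited, below the share of all genes (43.5%), each with a positive linear term, and 2 after rescaling, 1 in each direction. Gria3 had the largest linear term of those called, 0.24, at 31.6 FPKM in A and 79.8 in E, and Gria4 the smallest, 0.11, at 5.59 in A and 20.1 in C.

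Nalcn rose with depth most steeply of the 26 subunits as deposited. It stood at 3.88 FPKM in A, 9.48 and 9.62 in B1 and B2, 15.6 and 14.3 in C and D, and 18 and 17.9 in E and F. The layer 4 replicates were nearly equal and layers 5 and 6 lay above them without overlap. The linear term was 0.37 (SE 0.052, adjusted p = 0.0050), 0.27 after rescaling (0.0120), and the call was lost only without A (0.0613) among 18 alternatives. After correction for GC content the linear term was 0.20 (0.0267), below those of Cacng8 (0.24) and Cacna1e (0.23). Its first listed bases upstream of the RefSeq start, outside all GENCODE M21 exons, are shown because Nalcn had the largest linear term as deposited. Capitals mark CG dinucleotides, of which there are 2.
Nalcn, GRCm38.p6 chr14:123627145-123627394, minus strand: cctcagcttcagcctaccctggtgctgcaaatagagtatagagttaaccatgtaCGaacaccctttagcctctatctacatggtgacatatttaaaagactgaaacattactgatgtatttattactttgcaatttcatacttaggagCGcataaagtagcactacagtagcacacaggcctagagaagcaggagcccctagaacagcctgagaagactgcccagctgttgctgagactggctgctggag
None of the 3 motifs was in this window. Of 4 genes for NALCN partners, Unc80, the large scaffold of the channel, had the largest linear term, 0.25, from 17.4 FPKM in A to 51.6 in E (adjusted p = 0.0058, 0.0203 after rescaling), and Unc79 passed as deposited (0.0168) but not after rescaling (0.146). Fam155a and Fam155b were not called (0.903 and 0.289).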

How the data were processed

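Polyadenylated RNA of the 7 S1 libraries was sequenced in pairs. The 12 dorsal and lateral samples are not analysed here. Per the submitters' processing notes, reads were mapped to mm9 with TopHat 1.0.13 and Cufflinks 0.8.3 (TopHat 1.2.0 and Bowtie 0.12.7 are also named), with Ensembl release 57 models. The deposited FPKM values and their 95% intervals are on a linear scale. The deposited fraction values give a transcript's share in its locus, and the deposited coverage is the read depth of a transcript, used here for depth, with 2 ends of 50 nt per fragment (part of F was read longer). FPKM cannot be turned back into reads.

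Members and lists were chosen with earlier results of these data known. All 30 members are named. Values in each library are given for members called, those with a segment range of at least 2-fold and the 3 highest; partners named are those called with the largest or smallest linear term. Trends were fitted with limma 3.58.1 in R 4.3.3 on log2(FPKM + 0.1), which understates changes of low genes, over 11409 genes, with Benjamini-Hochberg adjustment, and the script was tested on simulated data. Interval steps at segment B needed both B1 and B2. Transcripts were tied to genes by identifier (66) or position (10) within the gene. Symbols, GC and sequences came from GENCODE M21 and RefSeq by identifier. Counting was not stated to use strand, and 8 members overlap another listed gene (Scn1a, Scn2b, Cacna1a, Cacna1d, Cacna1h, Cacnb2, Cacnb4 and Cacng4). Alternatives changed the pseudocount, filter, scale, GC correction, trend form and libraries; 2 more, chosen after seeing the data, removed models that M21 calls processed transcripts or retained introns.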

Additional observations from a re-analysis of the deposited data

How the results depend on the processing

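Of 18 alternatives, the count of 16 called subunits became 7 with a linear term alone, and ranged from 5 to 17 when each library was left out in turn (0 to 10 of the rising and 5 to 7 of the falling calls). It was 13 to 18 under the other alternatives. The rising calls, 10, were 6 after median of ratios with or without removal of noncoding models, 4 after GC correction and 3 with a linear term alone. The calls over all genes, 4968, were 2132 with a linear term alone and 1147 to 6611 when a library was left out. Leaving out each library, the linear term ranged from -0.29 to 0.13 for Scn1a, -0.0014 to 0.21 for Scn2b, -0.056 to 0.47 for Scn4b and -0.016 to 0.37 for Cacna2d2. It reversed for Scn1a without F (0.13), Scn2a after GC correction (-0.011), Scn2b after GC correction (-0.0096) and without A (-0.0014), Scn4b without A (-0.056) and Cacna2d2 without A (-0.016). Among terms not themselves past 0.05, Cacnb4 turned to -0.030 after GC correction and ranged from -0.076 to 0.37 over libraries left out, and Cacng4 turned to -0.095 after median of ratios and ranged from -0.14 to 0.13. Removing noncoding models, chosen after seeing the data, left 16 calls (14 after median of ratios) and moved Cacna1g to -0.19. The median share in A was 15.6% for pore-forming genes after median of ratios and 15.5% after GC correction, and 14.6% and 13.9% for auxiliary genes; in F it was 12.7% and 13.1%, with 15.7% for the subunits of narrow interval only, and for auxiliary genes 13.1% and 12.8%, with 13.2%. Over all 30 subunits, rather than the 26 tested for a trend, widening the intervals 2 times left fewer apart. These were 8 from B to C, 5 from C to D and 13 from D to E, of 14, 14 and 20. No share of all genes was set beside these counts. Opposite isoform changes were found for 2 of the 4 subunits with at least 2 transcripts of narrow interval, beside 82.4% of all such genes. Taking all listed transcripts, they were found for 15 of the 17 subunits with at least 2, with no share of all genes set beside it. The cause of these shifts was not tested. The segment range count kept within its limits under each alternative. The ratio of auxiliary to pore-forming sums did not in A, where it went from 2.64 to 3.44 without the noncoding models. No paired analysis was possible because only segment B has replicate numbers. With 1 library in 5 of 6 segments, differences between neighbouring segments rest on intervals that hold no variation between mice.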

Other observations

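Of the genes of these families outside the 30, Scn9a and Cacna2d4 were called at low levels. Scn9a, a pore-forming subunit known from sensory neurons, stood at 0.628 FPKM in A, 1.35 and 1.21 in B1 and B2, 1.66 and 1.73 in C and D, and 1.03 and 0.542 in E and F, with a quadratic shape highest in layer 5 and an adjusted p of 0.0042. Cacna2d4 rose by 0.20 per step, from 0.282 FPKM in A to 0.828 in F, with 0.0224 and, after rescaling, 0.0462. Scn10a, with intervals too wide for the test, stood at 0.580 FPKM in F and at 0.138 or lower in every other library.

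The layer 4 replicates are the only pair of libraries from the same segment. The SE and adjusted p of the trend rest also on how far the single libraries lay from the fitted curve. The ratio of B2 to B1 ran from 0.505 for Cacna1b, with its short model in B1 alone, to 1.35 for Scn2a over the 30 subunits. Of these, 27 lay within 1.5 times of equality in either direction. The median absolute log2 ratio was 0.26, beside 0.31 over all genes tested.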
